A study of Homo sapiens with 11 samples.

Results

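The set described here is 34 genes of endoplasmic reticulum (ER) stress and protein folding, taken by name from a list, with no measured value in the rule, out of 61542 genes counted. The list was drawn up with earlier results of these data known. It holds a sensor subgroup of 4 genes, XBP1 among them, 17 chaperones and disulfide enzymes, 7 genes of ER-associated degradation and 6 of the PERK-ATF4 branch. All 34 had enough reads to be among the 17033 genes tested. RNA was sequenced from SK-MEL-103, an established human melanoma line, after 6 days with a drug or the solvent DMSO (4 libraries). Tozasertib was given at 0.5 µM (3 libraries, replicates 1, 2 and 4) and etoposide at 0.25 µM (4 libraries). The samples hold no tozasertib replicate 3. Fresh medium and drug were given on day 3. Tozasertib inhibits the Aurora kinases of mitosis, etoposide traps topoisomerase II on broken DNA, and the study used each to drive these cells into senescence, a lasting exit from division. All groups come from the same line, so they stand for 1 tumour. Whether the replicates were grown as separate cultures is not stated, and the p-values cover only the variation among the libraries, part of which may be technical.

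Proteins that are secreted or sit in membranes fold in the ER, where chaperones such as BiP hold unfolded chains and disulfide isomerases pair their cysteines. When unfolded chains build up, the membrane sensors IRE1 (gene ERN1), PERK (gene EIF2AK3) and ATF6 start the unfolded protein response: IRE1 cuts a short intron out of the XBP1 mRNA, PERK phosphorylates eIF2 and so favours translation of the transcription factor ATF4, and ATF6 is cut in the Golgi to free a transcription factor. XBP1 and ATF6 raise chaperone and degradation genes, and ATF4 raises amino acid and stress genes, including DDIT3, which encodes CHOP. Senescent cells are known for a large secretory output, which loads this system. PERK signalling and eIF2 act on proteins, which RNA levels do not show.

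The intron that IRE1 removes from XBP1 is shown because 1 annotated transcript lacks it and the others keep it, so that the tables separate the forms. It lies in the coding sequence of XBP1 (chr22:28794555-28800597, minus strand, GRCh38), at chr22:28796128-28796153, and is 26 bases long. Below it is printed on the gene's strand with 24 bases on either side, from chr22:28796104-28796177, and the capitals mark the intron as annotated. Its first bases are the same as those that follow it, so the spliced product does not fix its ends to the base.
XBP1 intron: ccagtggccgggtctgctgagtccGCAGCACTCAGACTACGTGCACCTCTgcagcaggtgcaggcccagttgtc

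The promoter element through which ATF6 acts with NF-Y, named ERSE for ER stress response element, was searched in the members. They were listed for their known part in this response, so its share among them is a description and not an independent result. RefSeq promoters (GRCh38.p14, 250 bases before to 50 after the start) were matched by symbol for 31 of the 34 genes. ERSE, spelled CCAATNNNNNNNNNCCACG, was found on either strand in 7 of these 31 (22.6%), against 27 of 35116 promoters of the genome (0.0769%) and 0 of the 117 matched promoters of related pathway genes listed further on. The shorter ERSE-II, ATTGGNCCACG, stood in 3 of 31 (9.68%), against 19 of 35116 (0.0541%). No member promoter held both. The genome figures include the members and count every promoter listed, while members and pathway genes entered with a single promoter each. The HSPA5 promoter is printed from its first base to the base before the RefSeq start (chr9:125241344-125241593, minus strand), with ERSE in capitals, 48 bases before the start.
HSPA5 promoter: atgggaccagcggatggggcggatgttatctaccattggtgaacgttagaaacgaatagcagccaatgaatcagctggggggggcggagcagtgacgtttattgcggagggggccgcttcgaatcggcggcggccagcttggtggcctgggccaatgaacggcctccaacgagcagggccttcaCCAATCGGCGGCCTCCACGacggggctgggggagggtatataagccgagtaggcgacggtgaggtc

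The remaining ERSE matches are given with 5 bases on each side, written so that the element reads in its own direction, to show how the 9 free bases and the flanks vary. HSP90B1 held a pair of them.
XBP1, chr22:28800598-28800626, minus strand: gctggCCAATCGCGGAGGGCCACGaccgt
CRELD2, chr22:49918549-49918577, minus strand: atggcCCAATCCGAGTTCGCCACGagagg
HSP90B1, chr12:103930211-103930239, plus strand: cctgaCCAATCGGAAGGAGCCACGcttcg
HSP90B1, chr12:103930316-103930344, minus strand: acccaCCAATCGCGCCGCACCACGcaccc
CALR, chr19:12938379-12938407, minus strand: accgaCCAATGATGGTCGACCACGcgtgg
CANX, chr5:179698773-179698801, plus strand: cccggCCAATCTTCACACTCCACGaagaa
ERO1B, chr1:236282178-236282206, plus strand: ggcggCCAATGAGGCGGGACCACGcgggc
ERSE-II stood in HYOU1 as a pair, in HERPUD1 and in SDF2L1. The copies of SDF2L1 and HERPUD1 are printed as examples, and the pair of HYOU1 is not.
SDF2L1, chr22:21642109-21642129, minus strand: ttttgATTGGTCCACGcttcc
HERPUD1, chr16:56932020-56932040, plus strand: cgccgATTGGGCCACGttggg

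Libraries held 27882689 to 56534763 estimated reads with tozasertib, 28547842 to 40170233 with etoposide and 28863009 to 32957818 with DMSO. Levels are given as CPM, read counts scaled to library size with TMM factors, which balance the libraries on the bulk of their genes. In these bulk samples fewer cells of a type and less RNA per cell cannot be told apart. The melanocyte lineage factor SOX10 averaged 379.8, 323.3 and 514.4 CPM with tozasertib, etoposide and DMSO, and was lower with each drug, while MITF (9.26, 9.45 and 7.69 CPM) and S100B (3.31, 2.19 and 1.18 CPM) were higher. The pigment gene MLANA was at 0 in every library and TYR, TYRP1 and DCT stayed under 1 CPM, whereas PMEL averaged 3.86, 0.405 and 0.326 CPM and was higher with tozasertib (adjusted p = 9.79e-07). The summed level of 8 fibroblast markers was 120.5 to 125.3, 139.2 to 155.7 and 28.03 to 32.3 CPM in the same order, nearly all of it from LUM and COL1A1, with COL1A2, COL3A1 and DCN under 1 CPM throughout. Of 7 immune markers, 5 stayed under 1 CPM (NKG7 at 0), with sums of 43.6 to 48.5, 35.4 to 42.6 and 56.5 to 68.9 CPM, mostly CD68, and of 7 keratinocyte markers 3 did, with sums of 68.7 to 77.6, 68.1 to 71.1 and 65.3 to 78.6 CPM. The part of such cells in the results was not tested. Library DMSO 1 stood apart by gene length: its deviations from the group mean had a Spearman correlation of -0.476 with gene length across genes, and DMSO 4 one of 0.400, while the drug libraries lay between -0.077 and 0.111. Several short members were high and several long ones low in DMSO 1, and the values without this library are given where they matter.

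In DMSO cells the members spanned a wide range of levels per length. In TPM, which divides by transcript length, the calcium-binding chaperone CALR averaged 1070 ± 29.1 (SD, n = 4), HSP90B1 727.1 ± 62.2 and HSPA5 565.6 ± 71.9. The disulfide isomerases PDIA3 and P4HB were at 502.9 ± 48.5 and 428.3 ± 4.34 TPM. At the other end stood ERN1 at 1.56 ± 0.408, DERL3 at 1.75 ± 0.409 and ERO1B at 2.68 ± 0.673 TPM. The SDs of HSPA5 and PDIA3 overlapped, yet HSPA5 was the higher in each DMSO library (467.5, 587.6, 568.1 and 639.2 against 433, 520.7, 512.8 and 544.9 TPM). Those of ERN1 and DERL3 overlapped too, and their order varied between libraries. Differences between genes were not tested. TPM is used only to set genes beside each other, since over 14303 genes its median log2 ratio was 0.21 for tozasertib over DMSO and 0.12 for etoposide over DMSO.

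With tozasertib, 7 members rose and 18 fell against DMSO, and 9 did not pass the test. Over the 17033 genes, 29.9% were called up and 29.4% down. With etoposide, 8 members rose, 18 fell and 8 did not pass, and of all genes 27.7% were called up and 30.6% down. The median log2 fold change of the members was -0.21 with tozasertib and -0.17 with etoposide, while that of all genes was 0.02 and -0.01. Both comparisons used the same DMSO libraries. Most changes were small: with a fold of at least 1.5 also asked for, 3 rose and 7 fell with tozasertib (all genes 19.1% and 15.1%), and 2 rose and 9 fell with etoposide (16.7% and 15.2%). Most of the members that fell were chaperones and disulfide enzymes. ATF6, EIF2AK3, DNAJB9, SEL1L, STC2 and PPP1R15A rose with each drug, ERN1 was also called with tozasertib, and HYOU1 and SYVN1 with etoposide (plot of log2 fold changes by subgroup). Of the 25 calls with tozasertib, 20 held in each of the 21 alternative analyses, and of the 26 with etoposide 19 did.

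**Figure D1:**
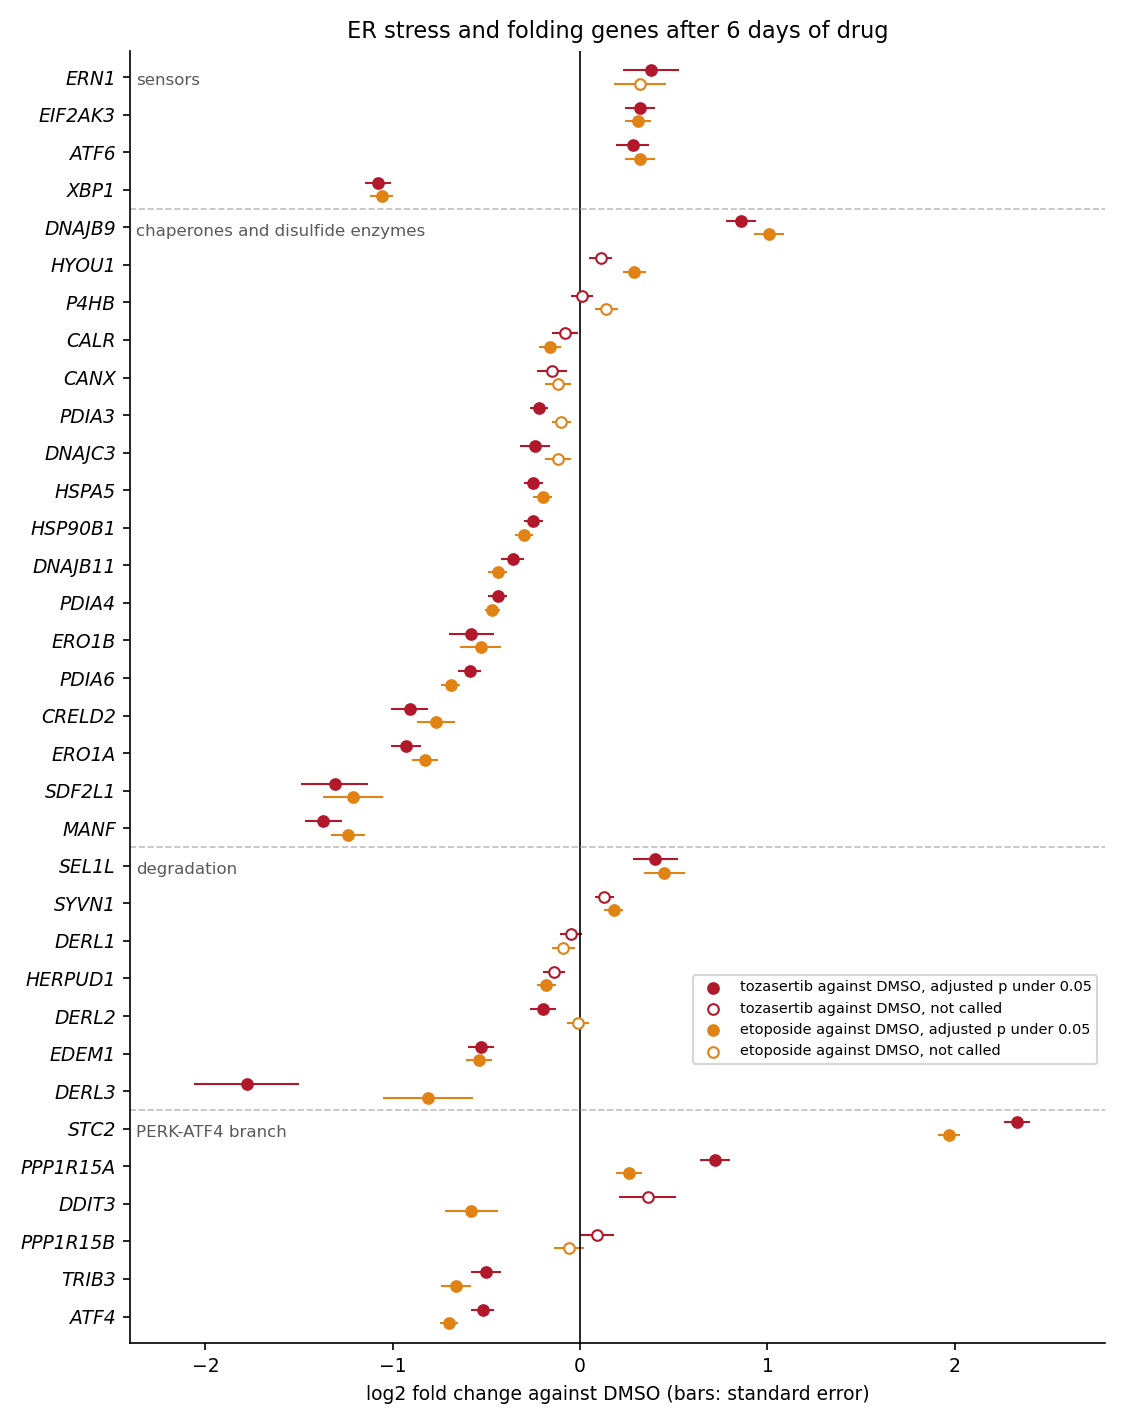
Log2 fold change of the 34 members against DMSO, with tozasertib (red, upper point of each row) and etoposide (orange, lower point), grouped by role. Bars are standard errors, and filled points have an adjusted p under 0.05 over 17033 genes. XBP1, MANF and SDF2L1 lie below -1 and STC2 near 2 with each drug, while DDIT3 is the member whose points lie on opposite sides of 0 by the largest distance.

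In the sensor subgroup, XBP1 fell and ATF6 and EIF2AK3 were higher with each drug. ERN1 passed the test with tozasertib alone, and only just. XBP1, the transcription factor downstream of IRE1, was at 18.1, 19.9 and 18.5 CPM in the tozasertib libraries 1, 2 and 4, at 19.6, 20.5, 17.6 and 18.4 CPM with etoposide and at 41.4, 40.2, 38.8 and 38.2 CPM with DMSO. Every drug library was far below every DMSO library. Its log2 fold change was -1.08 ± 0.07 with tozasertib (SE, adjusted p = 3.11e-08) and -1.06 ± 0.06 with etoposide (adjusted p = 1.49e-08).

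ATF6, the sensor that is itself cut into a transcription factor, had 92.2, 94.3 and 91.1 CPM with tozasertib, 86.5, 97.1, 99.9 and 96.7 with etoposide and 65.7, 71.7, 79.6 and 87.2 with DMSO. It rose by a log2 of 0.28 ± 0.09 with tozasertib (adjusted p = 0.0125) and of 0.32 ± 0.08 with etoposide (adjusted p = 0.00382), where the etoposide and DMSO libraries overlapped at a single library. EIF2AK3, the gene of PERK, had 34.9, 33.9 and 34.4 CPM with tozasertib, 36.8, 34.5, 31.6 and 33.8 with etoposide and 24.3, 29.5, 27.4 and 29.1 with DMSO. The groups did not overlap, and the log2 fold changes were 0.32 ± 0.08 and 0.31 ± 0.07, with adjusted p = 0.00287 for tozasertib and 0.00215 for etoposide. With counts scaled by estimated transcript length the EIF2AK3 change was no longer past the threshold, at 0.18 (adjusted p = 0.139) with tozasertib and 0.07 (adjusted p = 0.564) with etoposide. Counted on protein-coding transcripts alone, the tozasertib call was also lost (0.19, adjusted p = 0.374), while the etoposide call was kept.

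ERN1, the gene of IRE1, had 9.05, 9.84 and 7.39 CPM with tozasertib, 8.78, 8.29, 7.49 and 9.04 with etoposide and 5.11, 6.40, 7.41 and 8.02 with DMSO, so the groups overlapped. The log2 fold change was 0.38 ± 0.15 with tozasertib (adjusted p = 0.0428) and 0.32 ± 0.14 with etoposide (adjusted p = 0.0659, not past the threshold). The call with tozasertib was lost in 12 of 21 alternatives, among them those without DMSO 1 or 2, tozasertib 1 or 2, or etoposide 1, 2 or 4, with adjusted p from 0.0505 to 0.165 in these.

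The XBP1 transcripts were then split by the intron. The tables list 6, of which 1 (XBP1-202) lacks the intron, 4 keep it and 1 does not reach the site. The spliced transcript was listed at 0 estimated reads in tozasertib 1, 2 and 4, beside 999.4, 548.2 and 660.6 reads of the forms that keep the intron. With etoposide it had 0, 201.1, 129.5 and 169.2 reads of 765.8, 632.0, 604.8 and 510.1 that span the site, or shares of 0, 31.8, 21.4 and 33.2%. With DMSO it had 356.0, 418.1, 299.8 and 291.6 reads, or shares of 29.8, 37.7, 24.6 and 25.7%. Thus 4 libraries were at 0 and the other 7 lay between 21.4 and 37.7%, with nothing between. By counting error alone, and if every read told the forms apart, a listed 0 would still allow a small share. The limit would be 0.3, 0.547 and 0.454% for the 999.4, 548.2 and 660.6 reads with tozasertib. For the 765.8 reads of etoposide 1 it would be 0.392%. Not every read tells the forms apart, so the real limits are higher by an unknown amount.

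**Figure D2:**
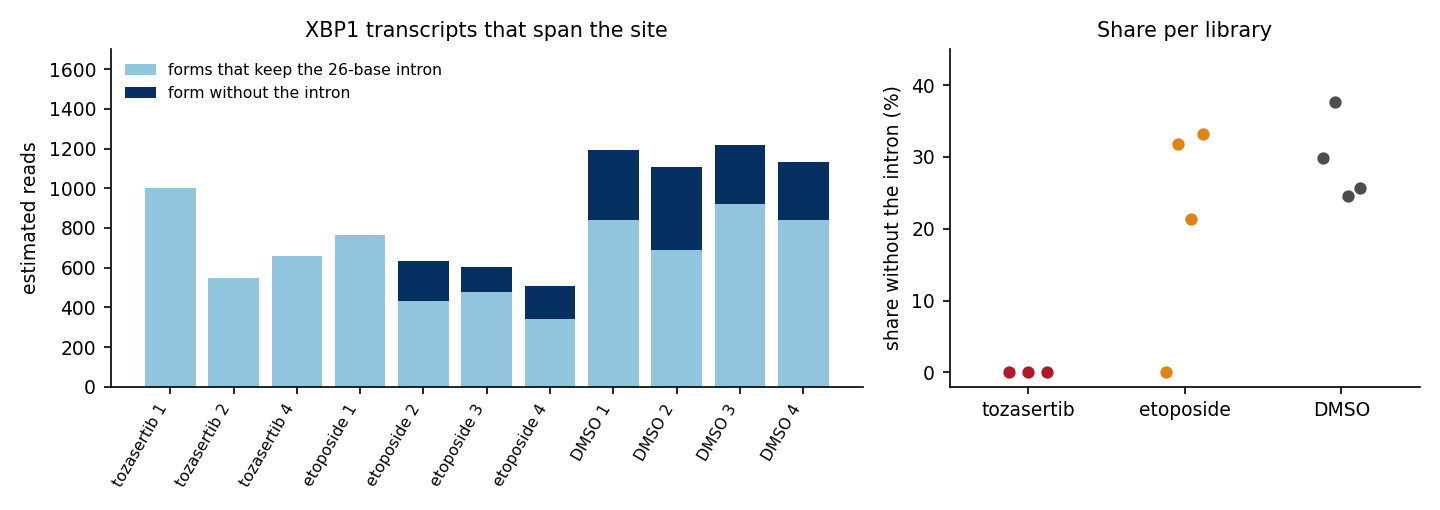
XBP1 in each library. Left, estimated reads of the transcripts that span the 26-base intron, stacked as forms that keep it (light) and the form without it (dark). Right, the share of the form without it, 1 point per library: 0% in the 3 tozasertib libraries and in etoposide 1, and 21.4 to 37.7% in the other 7.

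The share averaged 0% with tozasertib, 21.6% with etoposide and 29.5% with DMSO. In an exact two-sided permutation test, tozasertib differed from DMSO by -29.5 percentage points with p = 0.0571, the smallest value that 3 against 4 libraries allow, and adjusted p = 0.171 over the 3 comparisons. Etoposide differed from DMSO by -7.86 points (exact p = 0.457, adjusted p = 0.457) and tozasertib from etoposide by -21.6 points (exact p = 0.229, adjusted p = 0.343). No difference in the share passed the threshold, but after the adjustment none could with so few libraries. The smallest exact p possible was 0.0286 for etoposide against DMSO and 0.0571 for the other comparisons. The test therefore cannot decide whether the share differed. Without etoposide 1 the difference between etoposide and DMSO was -0.656 points, so that this 1 library set its size. Only reads over the site or at the transcript ends separate the forms, since XBP1-201 is otherwise the same as XBP1-202 except for 28 more bases at its 5′ end and 5 more at its 3′ end, and a 0 from Salmon can be a failed estimate. The number of such reads is unknown here, and their part in the shares was not tested.

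Among chaperones and disulfide enzymes, 12 of 17 fell and 1 rose with tozasertib (all genes 29.4% and 29.9%). With etoposide 11 fell and 2 rose (all genes 30.6% and 27.7%). The median log2 fold change was -0.25 with tozasertib and -0.30 with etoposide. MANF, SDF2L1, ERO1A and CRELD2 had the lowest values with each drug. The summed level of the 17 genes was 6481 to 6799 CPM with tozasertib, 6485 to 6859 with etoposide and 7593 to 8142 with DMSO. In TPM, whose scale is shifted as given above, the sums were 4670 to 4857, 4452 to 4613 and 4522 to 5221 in the same order, and the groups overlapped.

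HSPA5 encodes BiP, the main ER Hsp70 and the partner that keeps the sensors inactive. It had 858.5, 911.4 and 936.9 CPM with tozasertib, 895.8, 954.1, 946.2 and 923 with etoposide, and 1059, 1079, 1044 and 1097 with DMSO. Each drug library was below each DMSO library, with a log2 fold change of -0.25 ± 0.05 with tozasertib (adjusted p = 0.0013) and -0.20 ± 0.05 with etoposide (adjusted p = 0.00289), a fold of 1.19 with tozasertib. HSP90B1, which encodes the ER Hsp90 GRP94, had 1053, 1098 and 1064 CPM with tozasertib, 1022, 1066, 1028 and 1017 with etoposide, and 1302, 1292, 1252 and 1243 with DMSO. It fell likewise, with log2 fold changes of -0.25 ± 0.05 (adjusted p = 0.000716) and -0.30 ± 0.05 (adjusted p = 7.49e-05), again without overlap. On the TPM scale, which is shifted as stated above, HSPA5 averaged 568.1, 555.4 and 565.6 with tozasertib, etoposide and DMSO. With length-scaled counts and TMM its log2 fold change was -0.23 and -0.19, still past the threshold.

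MANF, a small secreted protein that binds BiP, had 70.7, 76.0 and 76.1 CPM with tozasertib, 78.6, 80, 88.8 and 77.8 with etoposide, and 232.0, 174.6, 181.7 and 178.4 with DMSO. Library DMSO 1 was the highest, and even the lowest DMSO library was above every drug library by a wide margin. The log2 fold change was -1.37 ± 0.10 with tozasertib (2.58-fold, adjusted p = 6.3e-08) and -1.24 ± 0.09 with etoposide (2.36-fold, adjusted p = 5.8e-08). SDF2L1, a partner of the ER J proteins that helps BiP keep clients soluble, had 9.56, 11.1 and 14.2 CPM with tozasertib, 12.1, 12.8, 11.5 and 13.4 with etoposide, and 40.3, 24.3, 25.5 and 24.9 with DMSO. Its log2 fold changes were -1.31 ± 0.18 (adjusted p = 3.78e-05) and -1.21 ± 0.16 (adjusted p = 3.03e-05), and DMSO 1 again stood above the rest. Without DMSO 1 the log2 fold changes with tozasertib and etoposide were -1.27 and -1.14 for MANF and -1.11 and -1.01 for SDF2L1.

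DNAJB9 went the other way. It encodes ERdj4, a J protein that brings BiP to IRE1 and to clients for degradation. It had 24.97, 25.6 and 25.9 CPM with tozasertib, 29.2, 30.7, 26.3 and 26.9 with etoposide, and 14.2, 12.4, 14.4 and 15.2 with DMSO. Every drug library was well above every DMSO library, by a log2 of 0.86 ± 0.08 with tozasertib (1.82-fold, adjusted p = 1e-06) and 1.01 ± 0.08 with etoposide (2.02-fold, adjusted p = 1.08e-07).

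**Figure D3:**
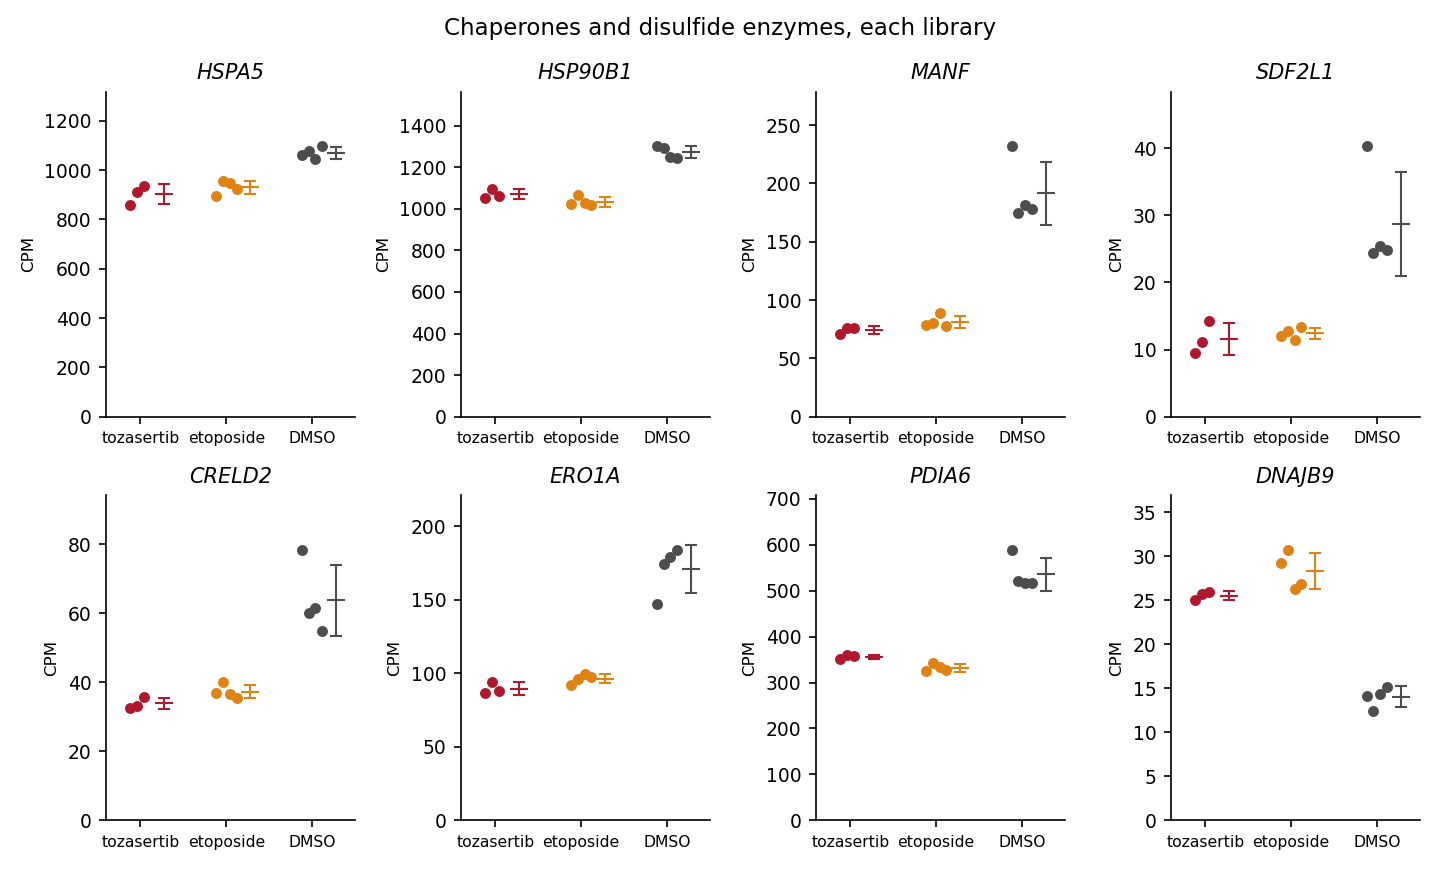
CPM of 8 chaperones and disulfide enzymes in each library, with tozasertib (n = 3), etoposide (n = 4) and DMSO (n = 4). Each dot is a library, and the dash with its bars is the mean ± SD. DNAJB9 is higher with each drug and the other genes shown are lower, while DMSO 1 is the highest of its group in MANF, SDF2L1, CRELD2 and PDIA6. The genes shown were chosen from the subgroup, and CANX, P4HB and DNAJC3, not shown, overlapped DMSO with both drugs.

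The oxidase ERO1A, which recharges the disulfide isomerases, fell with a log2 fold change of -0.93 ± 0.08 with tozasertib and -0.83 ± 0.07 with etoposide, and CRELD2, a secreted protein induced along with MANF in ER stress, with -0.91 ± 0.10 and -0.77 ± 0.10. The isomerases PDIA6 (-0.59 and -0.69) and PDIA4 (-0.44 and -0.47), the second oxidase ERO1B (-0.58 and -0.53) and the J protein DNAJB11 (-0.36 and -0.44) also fell with tozasertib and with etoposide. DNAJC3, which encodes the cochaperone p58IPK, was called with tozasertib only (-0.24, adjusted p = 0.0174) and had -0.12 (adjusted p = 0.178) with etoposide, and the difference between the drugs did not pass the test (adjusted p = 0.373). Without DMSO 1 the etoposide value was -0.17 (adjusted p = 0.027), and without tozasertib 1 the tozasertib value was -0.20 (adjusted p = 0.082).

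CANX and P4HB passed the test with neither drug, and CALR and HYOU1 passed it with etoposide. CANX, the membrane lectin of glycoprotein folding, had -0.15 with tozasertib and -0.12 with etoposide (adjusted p = 0.103 and 0.162). Without DMSO 1, the lowest DMSO library for this gene, CANX had -0.22 and -0.18 (adjusted p = 0.00896 and 0.0162). Its soluble partner CALR had -0.08 (adjusted p = 0.357) with tozasertib and -0.16 with etoposide, where the adjusted p of 0.0479 was lost in 18 of 21 alternatives, with -0.09 and adjusted p = 0.0795 without DMSO 1, and it held among the left-out libraries only without DMSO 3 or DMSO 4. P4HB, the founding disulfide isomerase, had 0.01 and 0.14 (adjusted p = 0.858 and 0.0612), and without DMSO 1 its etoposide value was 0.20 (adjusted p = 0.00107). HYOU1, the large ER Hsp70 that exchanges nucleotide on BiP, rose with etoposide (0.29, adjusted p = 0.000868), a call not kept with length-scaled counts (0.15, adjusted p = 0.0883), and had 0.11 (adjusted p = 0.15) with tozasertib.

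PDIA3, the isomerase that works with CANX and CALR, was lower with tozasertib (-0.22, adjusted p = 0.00256) and had -0.10 (adjusted p = 0.103) with etoposide. This gene showed how much the transcript set matters: on average 18.9, 18.5 and 14.7% of its estimated reads with tozasertib, etoposide and DMSO were on its protein-coding transcripts. Counted on those alone, its log2 fold change was 0.21 with tozasertib (adjusted p = 0.0754) and 0.29 with etoposide (adjusted p = 0.0147), the opposite direction.

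Genes with ERSE in the promoter can now be set beside their changes, as a description. Of the 7, 5 fell with tozasertib (HSPA5, XBP1, CRELD2, HSP90B1 and ERO1B). With etoposide 6 fell, the same and CALR, whereas CANX passed the test with neither drug. The CALR call was lost in 18 of 21 alternatives. Of the 24 members without an exact match in the window searched, 7 rose and 11 fell with tozasertib, and 8 rose and 11 fell with etoposide. Over all genes, 29.9% rose and 29.4% fell with tozasertib, and 27.7% rose and 30.6% fell with etoposide. Whether ERSE went with the direction of change was not tested. Of the 3 with ERSE-II, SDF2L1 fell with both drugs, HERPUD1 fell with etoposide and HYOU1 rose with etoposide. The unfolded protein response element core TGACGTGG stood in 1 member promoter (HYOU1, 3.23%, where it overlaps an ERSE-II match), against 0.729% of all promoters and 6 of the 117 pathway promoters (5.13%). The ATF4 element TGATGNAA stood in 2 (HERPUD1 and PPP1R15B, 6.45%), against 3.62% of all promoters and 5 of the 117 (4.27%). A match is a stretch of letters and not a measured binding site. Elements with a changed letter or outside the window were missed, so members without a match may still hold one.

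Of the 7 degradation genes, 3 fell and 1 rose with tozasertib (all genes 29.4% and 29.9%). With etoposide 3 fell and 2 rose (all genes 30.6% and 27.7%). SEL1L, the scaffold of the main ubiquitin ligase of the ER membrane, had 199.2, 192.0 and 202.0 CPM with tozasertib, 188.7, 212.7, 203.3 and 212.7 with etoposide, and 113.7, 147.3, 154.8 and 182.7 with DMSO. All drug libraries were above all DMSO libraries, with a log2 fold change of 0.40 ± 0.12 (adjusted p = 0.00906) and 0.45 ± 0.11 (adjusted p = 0.00294). In DMSO this long gene was lowest in DMSO 1 and highest in DMSO 4, the libraries at the ends of the length pattern. Without DMSO 1 the log2 fold changes were 0.29 and 0.34, still past the threshold. The ligase itself, SYVN1, had 0.13 (adjusted p = 0.0544) with tozasertib and rose by 0.18 (adjusted p = 0.0071) with etoposide.

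EDEM1, which passes mannose-trimmed clients to degradation, had 81.9, 83.5 and 82.1 CPM with tozasertib, 80.6, 86.1, 78.5 and 81.6 with etoposide, and 103.0, 117.8, 122.5 and 131.8 with DMSO. It fell with log2 fold changes of -0.53 ± 0.07 and -0.54 ± 0.07 (adjusted p = 4.92e-05 and 1.7e-05), with no overlap. DERL3, an inducible derlin of the retrotranslocation channel, was rare, with 43, 11 and 23 reads in the tozasertib libraries, 58, 39, 39 and 25 with etoposide, and 56, 65, 50 and 72 with DMSO. These were 0.735, 0.385 and 0.625 CPM with tozasertib, 1.42, 1.26, 1.10 and 0.873 with etoposide, and 1.94, 2.31, 1.56 and 2.43 with DMSO. The groups formed 3 steps without overlap. The log2 fold change was -1.78 ± 0.28 with tozasertib (adjusted p = 0.000102) and -0.81 ± 0.24 with etoposide (adjusted p = 0.0102).

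The other derlins and HERPUD1, which helps assemble the ligase and is a known ER stress target, changed little. DERL2 was lower with tozasertib (-0.20, adjusted p = 0.0255), which was lost in 8 of 21 alternatives, among them those without tozasertib 1 (adjusted p = 0.0848), tozasertib 2 (0.0786) or DMSO 3 (0.058), and had -0.01 with etoposide. HERPUD1 had -0.14 (adjusted p = 0.0616) with tozasertib, or -0.17 (adjusted p = 0.0321) without DMSO 2, and was lower with etoposide (-0.18, adjusted p = 0.0134), a call lost in 3 alternatives (no filter, adjusted p = 0.0682, these groups alone, 0.0745, and protein-coding transcripts, 0.295). DERL1 had -0.05 and -0.09, with adjusted p = 0.533 and 0.19.

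The PERK-ATF4 branch split within itself. ATF4, the translated target of PERK and of the other eIF2 kinases, had 215.7, 221.9 and 214.2 CPM with tozasertib, 193.6, 189.6, 191.8 and 192.8 with etoposide, and 339.2, 317.3, 304.2 and 287.3 with DMSO. Its mRNA was lower in every drug library, with log2 fold changes of -0.52 ± 0.06 (adjusted p = 6.35e-06) and -0.70 ± 0.05 (adjusted p = 1.56e-07). TRIB3, a pseudokinase that ATF4 and CHOP induce, fell too, with -0.50 ± 0.08 and -0.66 ± 0.08.

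STC2, a secreted glycoprotein hormone that is an ATF4 target in ER stress, had the largest rise. Its level was 1415, 1461 and 1391 CPM with tozasertib, 1110, 1130, 1080 and 1116 with etoposide, and 278.8, 322.3, 262.6 and 270.8 with DMSO. The groups were far apart, with a log2 fold change of 2.33 ± 0.07 with tozasertib (5.01-fold, adjusted p = 3.28e-11) and 1.97 ± 0.06 with etoposide (3.91-fold, adjusted p = 7.13e-11). In TPM it went to 708.4 with tozasertib and 504.5 with etoposide, beside 112.0 with DMSO, and so stood near HSPA5 in the drug-treated cells.

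PPP1R15A, which encodes GADD34, the stress-induced subunit of the phosphatase that reverses eIF2 phosphorylation, had 304.7, 337.9 and 326.4 CPM with tozasertib, 211.9, 220.4, 263.3 and 246.0 with etoposide, and 197.1, 204.6, 197.1 and 185.8 with DMSO. It rose by 0.72 ± 0.08 (adjusted p = 2.95e-06) and 0.26 ± 0.07 (adjusted p = 0.00591), without overlap. Its constitutive counterpart PPP1R15B had 0.09 and -0.06 (adjusted p = 0.385 and 0.534), or, without DMSO 1, -0.15 with etoposide (adjusted p = 0.0209). DDIT3, the gene of the pro-apoptotic factor CHOP, had 13.8, 14.6 and 11.2 CPM with tozasertib, 7.87, 7.16, 6.37 and 5.94 with etoposide, and 13.1, 9.38, 10.1 and 8.42 with DMSO. It fell with etoposide (-0.58 ± 0.14, adjusted p = 0.0036) with no overlap. With tozasertib it had 0.36 ± 0.15 (adjusted p = 0.0521), where the groups overlapped through DMSO 1, and 9 of 21 alternatives put it past the threshold, among them those without DMSO 1 (0.50, adjusted p = 0.00408) or without tozasertib 4 (0.46, adjusted p = 0.029).

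**Figure D4:**
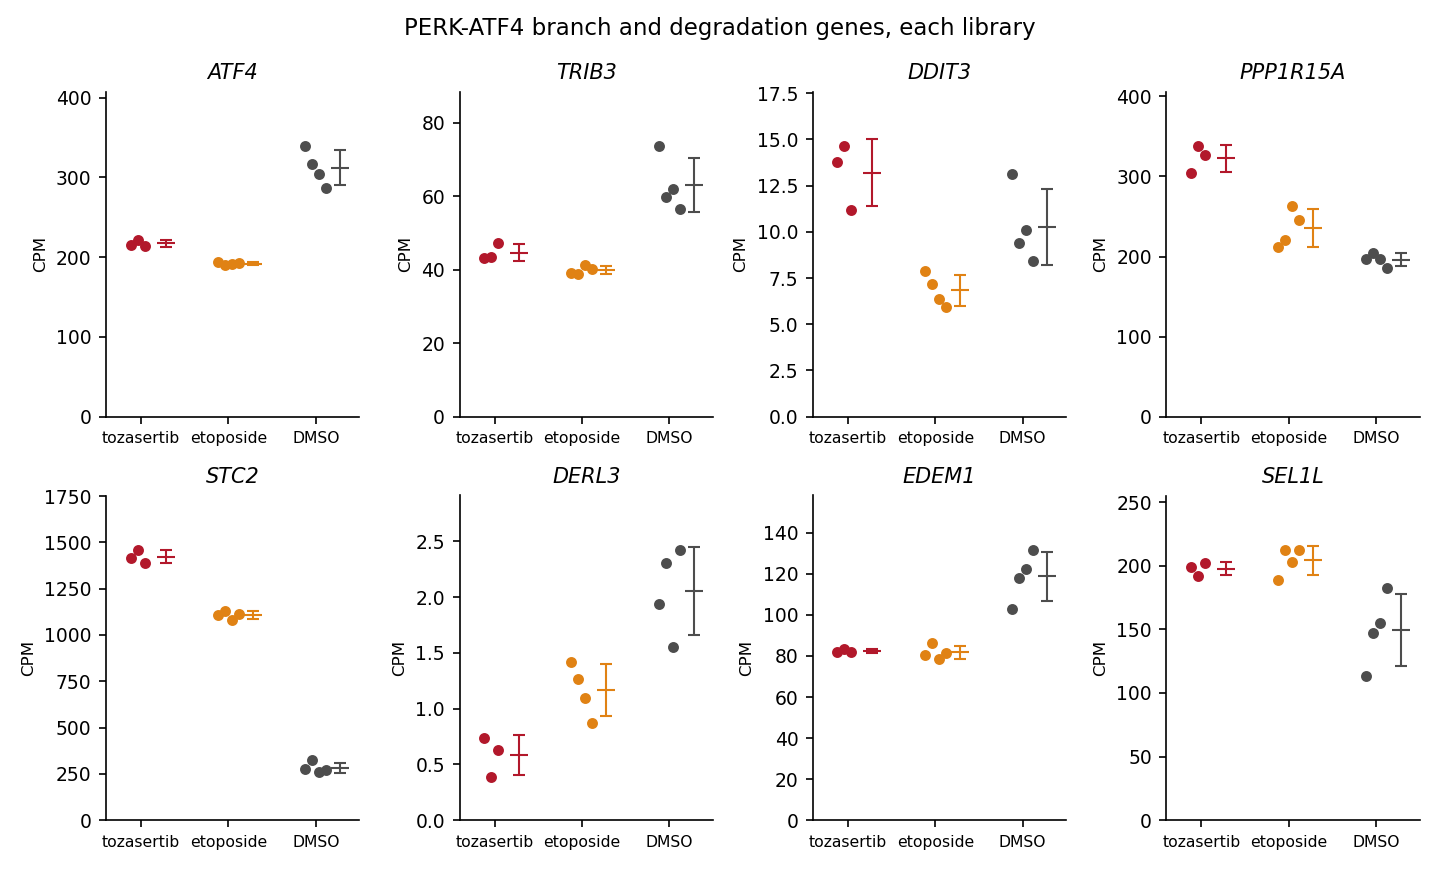
CPM of 5 genes of the PERK-ATF4 branch and 3 degradation genes in each library, with tozasertib (n = 3), etoposide (n = 4) and DMSO (n = 4), each dot a library and the dash with its bars the mean ± SD. STC2 is at 1080 CPM or more in every drug library and at or under 322.3 in DMSO, ATF4 and TRIB3 are lower with each drug, and DDIT3 is lowest with etoposide.

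Set directly against each other, the drugs differed in 4 members. Tozasertib over etoposide was higher for 3 of 34 (5.66% of all genes) and lower for 1 (5.45% of all genes). DDIT3 was 1.93-fold higher with tozasertib (log2 0.95 ± 0.15, adjusted p = 0.0013), PPP1R15A 1.37-fold higher (0.46 ± 0.08, adjusted p = 0.0016) and STC2 1.28-fold higher (0.36 ± 0.07, adjusted p = 0.00389), all in the PERK-ATF4 branch and all without overlap between the libraries. DERL3 was lower with tozasertib (-0.96 ± 0.28, adjusted p = 0.0403), on 11 to 58 reads a library. That call was lost in 11 of 21 alternatives, among them those without any 1 of the 3 tozasertib libraries, etoposide 1, 2 or 3 or DMSO 2, with adjusted p from 0.0546 to 0.154. None of the 17 chaperones and disulfide enzymes was called between the drugs by edgeR's test, where their log2 differences ran from -0.18 to 0.10 and 2 of them (HYOU1 and PDIA3) had an unadjusted p under 0.05. DESeq2 called HYOU1 (-0.21, adjusted p = 0.0191) and PDIA3 (-0.15, adjusted p = 0.0148) lower with tozasertib. The doses were those chosen for each drug, 0.5 and 0.25 µM, and were not matched.

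Other genes of the same pathways, in 7 lists of 138 genes that hold no member, were mixed in direction. Of 135 tested, 37 rose and 56 fell with tozasertib and 44 rose and 53 fell with etoposide, with medians of -0.12 and -0.11. Of the 26 other ER chaperones and lectins, 13 rose and 6 fell with tozasertib (all genes 29.9% and 29.4%) and 16 rose and 5 fell with etoposide (all genes 27.7% and 30.6%), with medians of 0.15 and 0.30. Whether they differed from the members was not tested. SERPINH1, the collagen chaperone HSP47, was at 524.3 ± 24.8 CPM with tozasertib, 575.2 ± 26 with etoposide and 258.1 ± 14.7 with DMSO (SD), a log2 fold change of 1.02 and 1.16. FKBP14, a prolyl isomerase of procollagen, rose by 0.90 and 1.18, whereas FKBP2 fell (-1.27 and -1.12). The fibroblast marker COL1A1, a collagen gene, stood at 18.8, 36.2 and 3.64 CPM with tozasertib, etoposide and DMSO, and its part in these changes was not tested.

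Among 22 genes of translocation into the ER, 3 rose and 11 fell with tozasertib and 5 rose and 7 fell with etoposide, with the channel subunit SEC61A1 at 0.51 and 0.59 and the signal peptidase subunit SPCS2 at -0.66 and -0.59. Of 14 other disulfide enzymes tested, 3 rose and 6 fell with tozasertib and 4 rose and 6 fell with etoposide, with the secreted oxidase QSOX1 at 1.08 and 1.25 and the membrane thioredoxin TMX4 at -1.83 and -2.01. Of 25 other degradation genes, 5 rose and 9 fell with tozasertib and 6 rose and 10 fell with etoposide. There the ubiquitin-conjugating enzyme UBE2J1 had -1.29 with each drug, while EDEM2 had 0.62 and 0.92. Of 15 partners of ATF6 and XBP1, 5 rose and 8 fell with each drug. Beside these counts stand the shares over all genes, 29.9% up and 29.4% down with tozasertib and 27.7% and 30.6% with etoposide. The NF-Y subunit NFYB, which takes part in binding the CCAAT part of ERSE, fell (-1.12 and -1.16), and the ER-bound factor CREB3L1 rose (1.31 and 1.75).

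Of the 22 other ATF4 targets, 6 were higher and 11 lower with tozasertib and 6 higher and 13 lower with etoposide, with medians of -0.38 and -0.59. In the branch itself the medians were 0.23 and -0.32. The stress factor NUPR1 rose by 3.66 ± 0.30 with tozasertib and 2.36 ± 0.30 with etoposide from a low level (2.5, 1.01 and 0.196 CPM with tozasertib, etoposide and DMSO), and the transcription factor ATF3 by 2.24 ± 0.14 and 2.21 ± 0.14. PHGDH, the first enzyme of serine synthesis, had 14.6 ± 1.24, 17.0 ± 1.95 and 121.1 ± 15.4 CPM in the same order (-3.05 and -2.83). The next lowest called genes were VEGFA, the angiogenic growth factor, with tozasertib (-1.72) and SLC7A5, the leucine carrier, with etoposide (-2.11), while SLC3A2, its partner subunit, named here after its values were seen, rose with each drug (0.83 and 0.43). In the direct comparison 4 of these 22 were higher with tozasertib (5.66% of all genes). In the list of 11 eIF2 kinases and eIF2 subunits, 2 rose and 5 fell with tozasertib and 2 rose and 4 fell with etoposide. Of all genes, 29.9% rose and 29.4% fell with tozasertib, beside 27.7% and 30.6% with etoposide. EIF2AK2, the gene of the double-stranded RNA sensor PKR, was at 354.5 ± 8.33 CPM with tozasertib, 128.9 ± 7.43 with etoposide and 91.9 ± 12.2 with DMSO, and its difference between the drugs was 1.46 ± 0.09 on the log2 scale (adjusted p = 3.03e-07).

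**Figure D5:**
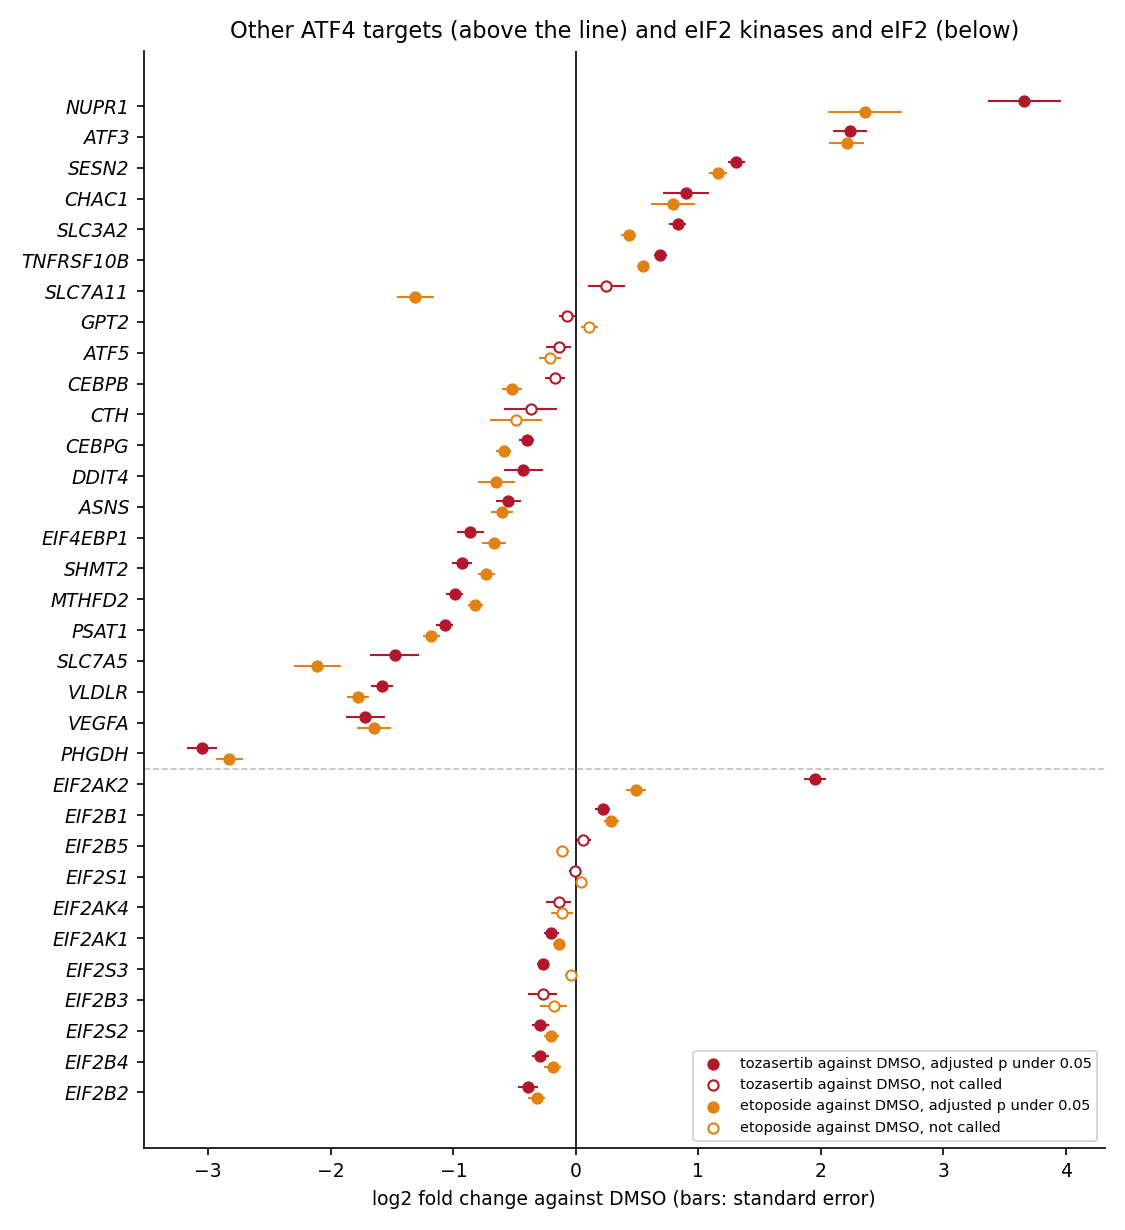
Log2 fold change against DMSO of 22 other ATF4 targets (above the dashed line) and 11 eIF2 kinases and eIF2 subunits (below it), with tozasertib (red, upper point) and etoposide (orange, lower point). Bars are standard errors and filled points have an adjusted p under 0.05. NUPR1 and ATF3 stand above 2 and PHGDH near -3 with each drug, and EIF2AK2 is at 1.95 with tozasertib and 0.49 with etoposide.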

How the data were processed

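From 11 SK-MEL-103 samples the authors isolated column-purified RNA and prepared strand-specific poly(A) libraries. The submitters' processing notes list GRCh38, Salmon 1.9.0, cutadapt 4.7, DESeq2 1.40.2 and R 4.4.2, while the study's methods name the aligner STAR, which does not give tables of this kind, and no source used here gives the Salmon options. Each deposited table holds estimated counts of reads per transcript, not whole and not normalized, and the authors' TPM, scaled by effective length to the same sum per library. Depth limits members such as DERL3, with few reads.

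Counts of 251645 transcripts were summed to 61542 genes with GENCODE v44 (907 transcripts, 0.318 to 0.359% of reads, did not match) and rounded. Salmon shares reads between copies, so HSP90B1 and XBP1, which have pseudogenes, are less certain. All 11 samples entered edgeR 4.0.16 (R 4.3.3; filterByExpr, TMM, quasi-likelihood test, 1 mean per group), with Benjamini-Hochberg adjustment over 17033 genes and calls at adjusted p under 0.05. The fit was tested on simulated data. The spliced share of XBP1 was compared by exact permutation. Alternatives were other scalings, DESeq2 1.42.0, limma-voom (limma 3.58.1), no filter, pairs of groups alone, a replicate block, length-scaled counts, protein-coding transcripts, removal of the length trend, each library left out, and a fold of 1.5. All members are named; values per sample are given for the sensors, HSPA5, HSP90B1, ATF4, DDIT3 and the 3 members of each other subgroup that changed most, and of each pathway list up to 2 genes at either end of the called ones. The members and lists were chosen with earlier results of these data known.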

Additional observations from a re-analysis of the deposited data

Results flagged for a closer look

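In 6 of 70 sets of 4 libraries (a member, or the XBP1 share, in etoposide or DMSO), 1 library lay far from the other 3 by Dixon's test, where chance gives about 1 in 20. Library DMSO 1 was the highest in 4 of them. MANF was at 232 CPM there against 174.6 to 181.7 in the other DMSO libraries, SDF2L1 at 40.32 against 24.34 to 25.45, PDIA6 at 589.6 against 516.8 to 520.2 and CALR at 1914 against 1576 to 1627. Library etoposide 1 was the lowest in the other 2, with PDIA3 at 486.6 CPM against 515.4 to 521.1 and CALR at 1441 against 1514 to 1529. Groups of 3, as with tozasertib, were not tested.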

How the results depend on the processing

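For each drug against DMSO, counts of members that rose or fell stayed within 1.5 times of those reported under every alternative, leave-one-out included, except with a fold of at least 1.5 also required, which left 3 higher and 7 lower with tozasertib and 2 higher and 9 lower with etoposide. Between the drugs, the 3 members higher with tozasertib became 6 when only these groups were fitted and 1 with the fold of 1.5. The 1 lower became 0 with library size alone, limma-voom, length-scaled counts or the replicate block, 3 with the 2 groups alone or the length trend removed, 4 with DESeq2, and 0 to 4 with libraries left out. With the replicate block the counts were 8 higher and 17 lower with each drug, and 3 higher between drugs. Same-numbered samples did not all deviate together (correlations of -0.09 to 0.23). Between the drugs they were 0.23, 0.09 and 0.12 for numbers 1, 2 and 4, and with DMSO -0.09 to 0.05. Samples of different numbers had -0.21 to 0.16. Whether a shared number means a shared batch was not tested. With library size alone the median of all genes for tozasertib against DMSO was 0.11, against 0.02 as reported. Between the drugs 964 genes were higher and 929 lower, but 1034 and 1550 with DESeq2 and 1027 and 1769 with the length trend removed. PDIA3 with tozasertib reversed to 0.21 on protein-coding transcripts. Differences of the XBP1 share kept their sign throughout, which with tozasertib at 0 in every library could not have been otherwise. With single libraries left out they ran from -31.1 to -26.7, from -11.7 to -0.656 and from -28.8 to -17.7 percentage points for tozasertib and etoposide against DMSO and tozasertib against etoposide. Permuted within replicate numbers (the replicate block) they were -31.1, -7.86 and -21.7. Where an alternative changed a call, the cause was not tested. Members with few reads, DERL3 and ERN1, are the least precise.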

Other observations

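Salmon's estimates also spread some members over transcripts of different kinds. For EIF2AK3, protein-coding transcripts took 56.2 ± 8.07% of the reads with tozasertib, 73.0 ± 6.81% with etoposide and 63.7 ± 12.7% with DMSO (SD, n = 3, 4 and 4). For ERN1 the share was 86.8 ± 21.9%, 79.4 ± 26.5% and 64.3 ± 41.4%, and for DERL3 45.3 ± 35.1%, 72.4 ± 13.2% and 76.2 ± 20%, in the same order. In PDIA3 the transcript with the most reads was PDIA3-225, annotated for nonsense-mediated decay, with 25.9, 26.9 and 33.8% of the gene's reads. These shares were not tested between groups.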
